A study of Mus musculus with 50 samples.

Results

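The change from the early 2-cell stage (early 2C) to the late 2-cell stage (late 2C) was followed in mouse embryos that carried injected Duxbl mRNA (Duxbl embryos). The libraries were chosen by their labels alone: 5 early 2C and 5 late 2C libraries of Duxbl embryos, 10 of the 50 libraries of the series, with every gene in the table described. All embryos were wild type and of the C57BL6/J strain, from superovulated females of 3 to 12 weeks mated with males of that strain, and were kept in KSOM medium. Zygotes received 200 ng/µl of mRNA coding for Duxbl with a V5 tag, joined through a 2A peptide to a nuclear mCherry protein, at 24 h after hCG, the hormone that triggers ovulation. Embryos were collected at 32 h (early 2C) and 48 h (late 2C). mCherry embryos received mRNA for nuclear mCherry alone at the same dose and time (6 early and 6 late 2C libraries), and uninjected embryos received nothing (6 and 6). Each library was a pool of 5 embryos, so differences between single embryos or between the cells of an embryo are not seen. The injected mRNA adds Duxbl from before the first division, with a tag and a second protein that the embryo's own gene lacks.

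Between these stages the mouse embryo normally switches on its own genome, degrades much of the RNA stored in the egg and enters its second division. DUX, made by the Duxf3 gene and its copies, is a double homeobox activator of genes transcribed in a burst at the 2-cell stage. DUXBL is a related double homeobox protein whose gene is itself turned on with that burst.

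Values are CPM, the deposited values scaled by the size of each library, and a change is a log2 difference on the log2(CPM + 1) scale with its standard error (SE) from a limma fit of all libraries. The added 1 makes the change of low genes look smaller than their CPM ratio. Genes were called at a Benjamini-Hochberg adjusted p under 0.05 over 28808 genes, two-sided. CPM is a share of a library, and the kit primes cDNA from poly(A) tails. Less RNA per embryo, fewer cells with a transcript, and shorter tails cannot be told apart here. Nothing in the labels says whether the pools of a group came from separate litters or days, so limma p-values measure only spread between pools. That spread is 1 estimate per gene shared by all 9 groups, not that of the 2 groups compared. A fit of the 2 Duxbl groups alone called 7783 of 21266 genes, against 11217 of 28808 in the main fit. Deposited totals ran from 22.3 to 25.1 M in the Duxbl early 2C libraries and from 18.8 to 22.5 M in the late ones. Oocyte transcripts marked the tissue, with Obox5 at 4136 ± 1145 CPM and Nlrp4f at 1252 ± 46.5 CPM at early 2C (mean ± SD, n = 5). The late libraries were less alike: each had a mean correlation over genes of 0.852 to 0.894 with the others of its group, against 0.966 to 0.974 at early 2C, and library 4 was the least alike. Values below are given in the order of the library numbers, 3, 4, 5, 6 and 7 at early 2C and 1, 3, 4, 6 and 7 at late 2C.

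Duxbl1, the Duxbl gene of the table (chr14:25979001-25990512, plus strand in mm39), checks the labels, since reads of the injected mRNA would be counted on it. Its early 2C values were 1429, 2481, 3771, 3169 and 3930 CPM and its late 2C values 2767, 1376, 4556, 2764 and 2696 CPM. mCherry embryos held 125 to 229 CPM (median 158) at early 2C and 158 to 491 CPM (median 344) at late 2C, so that every Duxbl library lay above every mCherry library. The change in Duxbl embryos was -0.07 ± 0.33 (limma adjusted p = 0.904), with overlapping groups, and its sign turned in several alternative fits. Reads of the injected and of the embryo's own transcript cannot be told apart. Duxf3, the DUX gene, was at 2.02, 2.27, 2.39, 2.44 and 3.1 CPM at early 2C and at 0, 0.196, 0.098, 0 and 0.136 CPM at late 2C. The change was -1.66 ± 0.38 (limma adjusted p = 0.000432), all late libraries lay below all early ones, and mCherry embryos lost it as well (-1.93), with a difference of 0.27 ± 0.52 (limma adjusted p = 0.708). Near-identical copies of this gene share its reads.

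In Duxbl embryos 11217 of 28808 genes (38.9%) changed between the stages, 5847 (20.3%) upwards and 5370 (18.6%) downwards. At least 2-fold changes were found for 4069 genes upwards (14.1%) and 3903 downwards (13.5%), against 6813 (23.6%) and 5634 (19.6%) in mCherry embryos. The same step moved 16512 genes (57.3%) in mCherry embryos, 8962 upwards (31.1%) and 7550 downwards (26.2%), and 16449 (57.1%) in uninjected embryos, 8862 upwards (30.8%) and 7587 downwards (26.3%). The step itself differed between Duxbl and mCherry embryos for 12933 genes (44.9%), 6142 with a higher and 6791 with a lower change in Duxbl embryos.

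Part of these changes also took place in mCherry embryos. Of the genes gained in Duxbl embryos 2233 were also gained in mCherry embryos, 38.2% of the Duxbl list and 24.9% of the mCherry list. Of those lost, 3240 were lost in both, 60.3% of the Duxbl list and 42.9% of the mCherry list. A gain in Duxbl embryos with no called gain in mCherry embryos and a called difference of the steps was found for 2642 genes, and a loss of that kind for 1608. Conversely, 5024 genes were gained in mCherry but not in Duxbl embryos with a called difference, 56.1% of the mCherry gains, and 2907 losses of mCherry embryos (38.5%) were missing in the same sense. Called changes in opposite directions were found for 718 genes that rose in Duxbl and fell in mCherry embryos, and for 832 genes the other way round.

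**Figure D1:**
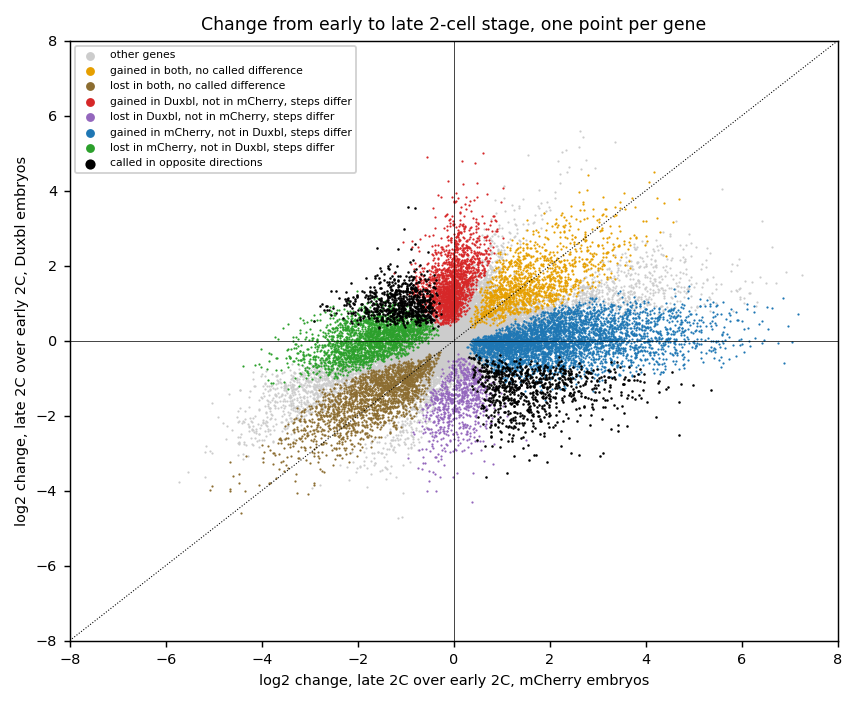
Log2 change from early to late 2C in mCherry embryos (horizontal) against Duxbl embryos (vertical), 1 point for each of 28808 genes, with colours for the called sets and a dotted line of equal change; the genes called in opposite directions are drawn in black. The 5024 gains missing in Duxbl embryos lie in the right part; 832 of them were called lower in Duxbl embryos and lie below the horizontal axis. The 2642 gains of Duxbl embryos alone lie in the upper part; 718 of them were called lower in mCherry embryos and lie left of the vertical axis.

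A progress value summarised the normal step in each library. It is the median, over genes called with at least a 2-fold change in uninjected embryos, of the distance from the uninjected early 2C mean to the uninjected late 2C mean, so that 0 is early and 1 is late. For the 6735 genes (23.4% of those tested) that uninjected embryos gained, the Duxbl late 2C libraries were at 0.131, 0.0136, 0.0551, 0.0171 and 0.0736, a mean of 0.058 ± 0.0479 (SD, n = 5). mCherry late 2C libraries were at 0.923 to 1.07, with a mean of 0.992 ± 0.056 (SD, n = 6). The Duxbl late libraries stayed near the early end, and the groups did not overlap (difference -0.934, two-sided exact permutation p = 0.00216, the smallest this design allows, adjusted p = 0.00433 over 4 tests).

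For the 5721 genes (19.9%) that uninjected embryos lost, the Duxbl late libraries were at 0.403, 0.248, 0.448, 0.315 and 0.359, a mean of 0.355 ± 0.0774 (SD, n = 5). mCherry late libraries were at 0.86 to 1.07, with a mean of 0.958 ± 0.0864 (SD, n = 6), and again no library overlapped (difference -0.604, exact permutation p = 0.00216, adjusted p = 0.00433). In each of the 5 Duxbl late libraries the value for lost genes was above that for gained genes. At early 2C the same comparison gave differences of 0.00356 for gained genes (exact permutation adjusted p = 0.695) and 0.0173 for lost genes (exact permutation adjusted p = 0.485).

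**Figure D2:**
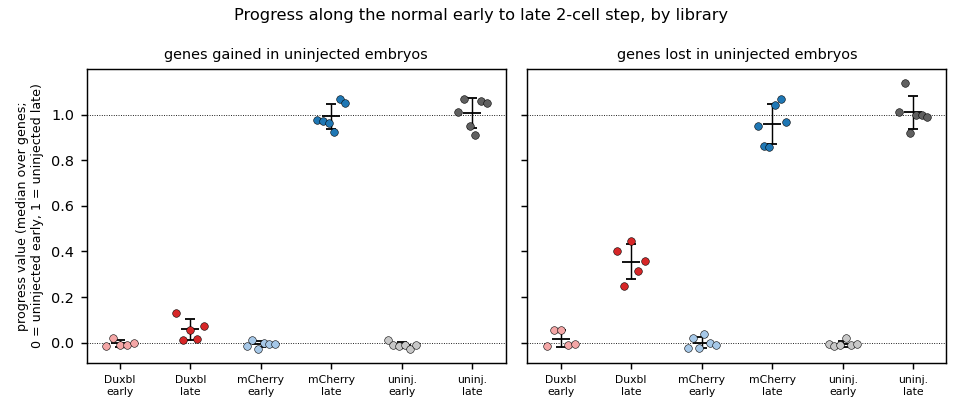
Progress value of each library (vertical, 0 = uninjected early 2C mean, 1 = uninjected late 2C mean) for genes gained (left) and lost (right) in uninjected embryos, by group, with mean and SD. Duxbl late 2C libraries lie between 0.0136 and 0.131 for gained genes and between 0.248 and 0.448 for lost genes.

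Wnt1 (chr15:98687738-98691718, plus strand in mm39), a secreted ligand of the Wnt pathway that patterns the midbrain and neural crest, rose from near 0 in Duxbl embryos. Its early 2C values were 0.30, 3.36, 0.929, 0 and 0.754 CPM and its late 2C values 33.6, 21.9, 142, 59 and 46.3 CPM. The groups did not overlap, and library 4 at late 2C stood above the others. The change was 4.80 ± 0.35 (limma adjusted p = 9.36e-16). Late mCherry libraries held 0 to 2.11 CPM (median 0.161), and the difference of the steps was 4.62 ± 0.47 (limma adjusted p = 2.74e-11).

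Zic5 (chr14:122694207-122703089, minus strand), a zinc finger factor of the neural plate, and Hoxb7 (chr11:96177449-96180988, plus strand), a homeobox factor of the trunk, followed the same course. Zic5 went from 2.06, 5.8, 2.43, 0.557 and 0.963 CPM to 41.2, 27.1, 74, 77.6 and 80.8 CPM, a change of 4.26 ± 0.58 (limma adjusted p = 4.52e-08). Hoxb7 went from 0.515, 4.19, 2.92, 1.2 and 0.419 CPM to 28.1, 16.6, 36.6, 44.9 and 23.1 CPM, a change of 3.55 ± 0.39 (limma adjusted p = 1.58e-10). Early and late libraries did not overlap for either gene. In mCherry embryos Zic5 did not pass the test (-0.12) and Hoxb7 fell by 0.96, from a mean of 1.29 CPM to a mean of 0.0611 CPM. Both steps differed between the embryos, by 4.39 ± 0.79 and 4.51 ± 0.52 (limma adjusted p = 8.46e-06 and 7.09e-10). At the late 1-cell stage the 4 Duxbl libraries held 0 to 0.942 CPM (median 0.297) of Wnt1, 0.434 to 0.899 CPM (median 0.623) of Zic5 and 0.422 to 1.96 CPM (median 0.604) of Hoxb7, so none of the 3 was high before the step.

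Sox11 (chr12:27384263-27392573, minus strand), a high-mobility-group factor of neural progenitors, had the largest rise among the genes that could be named. It stood at 1.2, 10.6, 9.73, 4.32 and 3.73 CPM at early 2C and at 194, 138, 316, 270.3 and 277 CPM at late 2C, a change of 5.30 ± 0.47 (limma adjusted p = 4.51e-13). All late libraries were more than 10 times above all early ones. mCherry embryos gained it too, to 11.5 to 85.5 CPM (median 31.6), and the difference of 1.93 ± 0.64 (limma adjusted p = 0.0113) was not called against uninjected embryos, with voom weights or with an added 0.1 in place of 1.

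The RefSeq promoters (GRCm38.p6) of Wnt1, Zic5 and Sox11 are shown because these transcripts went from a few CPM or less to the late 2C levels above, beside that of Aurka, the lost gene with the highest early level among the 12 largest falls. Each is the 250 bases before the annotated start, 5′ to 3′ on the gene's strand, with CpG dinucleotides in capitals. These coordinates are of another build than the table's and are not to be mixed with it. Wnt1 lies at chr15:98789607-98789856, plus strand, Zic5 at chr14:122465659-122465908, minus strand, Sox11 at chr12:27342719-27342968, minus strand and Aurka at chr2:172370571-172370820, minus strand.
Wnt1: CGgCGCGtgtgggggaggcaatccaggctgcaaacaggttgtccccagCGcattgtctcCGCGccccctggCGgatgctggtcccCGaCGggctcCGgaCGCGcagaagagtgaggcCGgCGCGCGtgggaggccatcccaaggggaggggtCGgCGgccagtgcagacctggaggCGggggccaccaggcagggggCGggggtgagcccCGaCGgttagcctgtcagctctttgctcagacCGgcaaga
Zic5: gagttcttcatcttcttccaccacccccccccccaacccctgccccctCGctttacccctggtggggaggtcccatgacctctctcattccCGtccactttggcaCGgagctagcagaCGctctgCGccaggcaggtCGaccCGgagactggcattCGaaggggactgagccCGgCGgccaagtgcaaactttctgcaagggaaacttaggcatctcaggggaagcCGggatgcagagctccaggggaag
Sox11: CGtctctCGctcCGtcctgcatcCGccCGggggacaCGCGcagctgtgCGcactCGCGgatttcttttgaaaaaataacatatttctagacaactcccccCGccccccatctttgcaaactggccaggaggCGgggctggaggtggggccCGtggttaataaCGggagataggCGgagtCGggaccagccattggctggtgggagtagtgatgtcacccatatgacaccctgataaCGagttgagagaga
Aurka: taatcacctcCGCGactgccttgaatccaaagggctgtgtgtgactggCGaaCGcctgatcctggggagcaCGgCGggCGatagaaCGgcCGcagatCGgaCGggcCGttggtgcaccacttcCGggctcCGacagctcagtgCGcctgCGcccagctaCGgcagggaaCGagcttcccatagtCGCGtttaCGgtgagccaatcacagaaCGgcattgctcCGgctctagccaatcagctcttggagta
The windows hold 23, 11, 17 and 23 CpG, against a median of 6 over all 32851 promoters of the table (quartiles 2 and 16), so that the lost gene and the gained genes lie on the same side of that median. The double homeodomain pattern TGAT, any 2 bases and AATCA, searched on both strands, was in none of the 4 windows and in 0.177% of all promoters. The related pattern TAAT, any 2 bases and AATCA was in none of them and in 0.335% of all promoters, and the homeodomain pattern TAATTA in none of them and in 4.84%. Patterns are only letters in these windows, and regions farther away were not searched.

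Hox genes, the clustered homeobox factors that set position along the body axis, rose as a group. Of 38 tested 28 rose and 0 fell in Duxbl embryos, with a median change of 1.38 against 0.01 over all genes. In mCherry embryos 4 rose and 3 fell (median -0.01), and the step was higher in Duxbl embryos for 25 and lower for 1. Without late library 4, 26 rose. These counts stand against 20.3% higher and 18.6% lower over all genes in Duxbl embryos, and 31.1% and 26.2% in mCherry embryos. The step was higher in Duxbl embryos for 21.3% of all genes and lower for 23.6%. The counts of the lists that follow stand against the same shares. All 4 clusters had called members. Hoxa9 went from 0.472, 2.31, 4.07, 0.0428 and 1.3 CPM to 69.4, 32.9, 65.7, 116 and 42.7 CPM, a change of 4.74 ± 0.56 (limma adjusted p = 1.2e-09), with no overlap. Hoxc10 went from 0, 0, 0.265, 0 and 0.67 CPM to 8.29, 10.1, 10.8, 14.3 and 15.7 CPM, a change of 3.43 ± 0.28 (limma adjusted p = 2.54e-14). Hoxa2 rose from 0.426 ± 0.815 to 16.9 ± 8.46 CPM (mean ± SD, n = 5 and 5), Hoxc8 from 1.14 ± 1.94 to 12.1 ± 6.31 and Hoxb8 from 0.215 ± 0.129 to 2.17 ± 0.615, so that some called members stayed at a few CPM.

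Other factors that pattern the embryo also rose in part. Of 39 basic helix-loop-helix factors 24 rose and 3 fell (median 1.16), against 14 and 1 in mCherry embryos (median 0.32), and the steps differed upwards for 10 and downwards for 3. The 14 mCherry rises were near the share of all genes, and the 1 fall was below it. The 10 upward differences of the steps were also near the share of all genes, and the 3 downward ones were below it. Neurod2, a neuronal differentiation factor, rose from 0.14 ± 0.147 to 11.4 ± 9.36 CPM and Nhlh1 from 0.378 ± 0.508 to 6.94 ± 2.17 CPM. Olig1, of the oligodendrocyte lineage, rose in both kinds of embryo, by 3.39 and 3.11. Of 44 Sox, forkhead and Zic factors 24 rose and 2 fell (median 1.06), against 17 and 5 in mCherry embryos. The step was higher in Duxbl embryos for 17 and lower for 3. Without late library 4, 26 rose and 1 fell. Sox10, of the neural crest, went from 0.0429, 0.523, 0.354, 0.257 and 0 CPM to 22.4, 8.62, 42.1, 7.61 and 13.7 CPM, with no overlap. Sox15 went the other way, by -3.06 ± 0.31 (limma adjusted p = 2.55e-11), while mCherry embryos gained it by 1.26.

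Homeobox factors outside the Hox clusters gave 42 higher and 6 lower of 93 (median 0.64), against 33 and 9 in mCherry embryos. The step was higher in Duxbl embryos for 23 of them, near the share of all genes, and lower for 9, below it. The 33 mCherry rises were also near the share of all genes, and the 9 mCherry falls were below it. Nkx2-2, of the ventral neural tube, rose from 0.183 ± 0.149 to 8.64 ± 3.02 CPM, and Pou3f1 rose in both kinds of embryo, by 3.23 and 3.03. Among 36 T-box, GATA and nuclear receptor genes 16 rose and 4 fell, against 13 and 6 in mCherry embryos. The step was higher in Duxbl embryos for 15 and lower for 9, the latter near the share of all genes. Nr2f1, an orphan nuclear receptor of neural tissue, went from 0.686, 3.27, 10.2, 1.41 and 1.05 CPM to 30.9, 35.2, 43.9, 35.1 and 43.2 CPM, a change of 3.53 ± 0.34 (limma adjusted p = 5.43e-12). The late values lay close together, all early values were below them, and mCherry late libraries held 0 to 0.206 CPM (median 0.0524). Its relative Nr2f2 rose by 3.13 ± 0.39 (limma adjusted p = 5.51e-09).

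**Figure D3:**
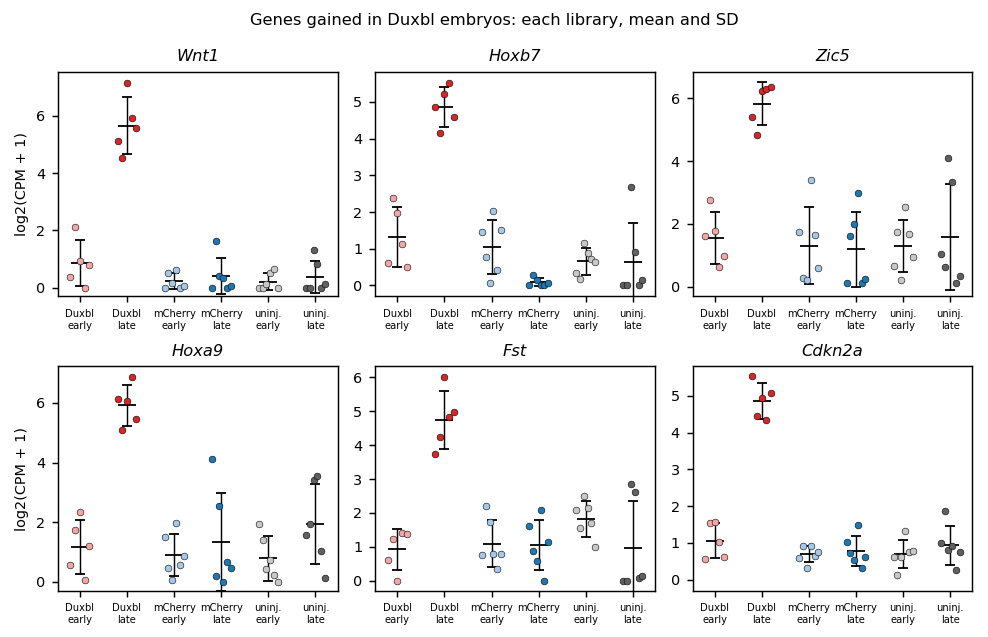
Level of 6 genes gained in Duxbl embryos, log2(CPM + 1), in each 2-cell library of the 3 treatments, with mean and SD of each group. In all 6 panels the 5 Duxbl late 2C libraries lie above all Duxbl early 2C libraries, and the late control libraries lie below them.

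Signalling genes were mixed. Of 19 Wnt ligands 8 rose and 1 fell in Duxbl embryos, against 5 and 1 in mCherry embryos. The step was higher in Duxbl embryos for 3 and lower for 2. Wnt5a, a ligand of the non-canonical branch, went from 1.59, 9.11, 6.01, 4.41 and 5.15 CPM to 42.3, 36, 69.5, 24 and 23.6 CPM, a change of 2.7 ± 0.45 (limma adjusted p = 2.74e-06). Its difference from mCherry embryos, 1.97 ± 0.61 (limma adjusted p = 0.00681), was not called with an added 0.1 or with voom weights. Among 35 receptors, carriers and inhibitors of the pathway 8 rose and 4 fell, and among 16 pathway targets 3 rose and 4 fell, shares near the background. The step was higher in Duxbl embryos for 7 of the 35 and lower for 10. For the 16 targets it was higher for 3 and lower for 1. Ryk, a Wnt receptor present from the egg on, went from 225, 244, 219, 219 and 231 CPM to 461, 500.4, 654, 565 and 633 CPM, a change of 1.29 ± 0.14 (limma adjusted p = 2.94e-10), while it fell by 0.71 in mCherry embryos. Of 38 genes of the BMP, FGF, Hedgehog and Notch pathways 15 rose and 3 fell, against 12 and 8 in mCherry embryos. The step was higher in Duxbl embryos for 11 and lower for 3. Shh, the Hedgehog ligand, went from 1.46, 1.74, 2.96, 0.771 and 1.26 CPM to 25.1, 12.1, 32.3, 8.36 and 14.2 CPM, with no overlap and a change of 2.78 ± 0.30 (limma adjusted p = 1.91e-10). The ligands Fgf9 and Bmp5 rose by 1.86 and 1.73 and fell by 0.84 and 0.99 in mCherry embryos.

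Gains without a counterpart in mCherry embryos also included genes outside these lists. Cdkn2a, which codes for the cell cycle inhibitors INK4A and ARF, went from 0.472, 1.92, 1.95, 1.03 and 0.544 CPM to 45.2, 20.7, 29.6, 19.1 and 32.5 CPM, a change of 3.80 ± 0.27 (limma adjusted p = 4.06e-16), and its step differed by 3.70 ± 0.36 (limma adjusted p = 9.07e-12). Fst, which codes for the activin antagonist follistatin, went from 0.515, 1.35, 0, 1.67 and 1.59 CPM to 12.3, 17.9, 63.1, 27.3 and 30.6 CPM, a change of 3.83 ± 0.46 (limma adjusted p = 2.2e-09). Spock2, a matrix proteoglycan gene, went from 0.129, 0.654, 0.133, 0.0856 and 0.377 CPM to 18.5, 23.5, 34.5, 10.6 and 13.1 CPM. For these 3 genes, as for all those named for the size of their change, groups that do not overlap were a condition of the choice. Further genes of this kind were Tnfsf9, a cytokine of the TNF family (3.76), P4ha3, a collagen prolyl hydroxylase (3.72), and the long non-coding RNAs Rian (4.06) and Scpep1os (3.84). In mCherry embryos Rian changed by 1.03 (limma adjusted p = 0.0626).

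Some strong gains were part of the normal step. Taf7l, a TFIID subunit paralog of germ cells and fat, went from 0.0429, 2.09, 0.133, 0.471 and 0.293 CPM to 52, 9.36, 47, 39.2 and 38.8 CPM in Duxbl embryos (4.51 ± 0.53, limma adjusted p = 1.13e-09) and rose by 4.18 in mCherry embryos. Late library 3 was the low one, and the difference of the steps was 0.33 ± 0.72 (limma adjusted p = 0.741). Sphk1, sphingosine kinase, behaved alike, with changes of 4.23 and 4.06 and late values of 32.3, 27.6, 120.1, 25.2 and 21 CPM, of which library 4 was the highest. Tut4, a uridylyltransferase that tags RNA for decay, went from 2.15, 4.88, 3.58, 1.07 and 2.09 CPM to 58.7, 32.9, 73.3, 43.5 and 67.5 CPM, a change of 3.94 ± 0.35 (limma adjusted p = 6.37e-13), against 3.55 in mCherry embryos. Lrrk2, a kinase, rose in both but by more in Duxbl embryos (4.96 against 1.54, difference 3.42 ± 0.61, limma adjusted p = 6.91e-06). In all, 1390 genes were gained in both kinds of embryo with no called difference, with median changes of 1.44 and 1.5.

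Normal gains that fell short in Duxbl embryos included genes of the 2-cell burst. Obox8 (chr7:14065361-14067482, minus strand), of the oocyte-specific homeobox family, was at 4.59, 17, 1.64, 2.87 and 14.4 CPM in early and 2.23, 3.18, 2.01, 3.31 and 10.7 CPM in late Duxbl libraries, and the groups overlapped. mCherry embryos went from 1.47 to 8.28 CPM (median 5.21) to 394 to 1100 CPM (median 682), and the difference of the steps was -7.47 ± 0.64 (limma adjusted p = 1.62e-13). Trim43a was at 1.76, 6.84, 1.81, 1.63 and 6.49 CPM and 2.37, 4.26, 1.62, 1.96 and 5.96 CPM in Duxbl embryos, while mCherry embryos reached 282 to 868 CPM (median 460.4). No late Duxbl library came near a late mCherry library for either gene. Both have close copies whose reads the counting could split.

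Normal gains were also missing for Pdxk and for other genes with the largest negative differences. Pdxk, pyridoxal kinase, was at 1.07, 4.36, 0.663, 0.728 and 5.57 CPM and 1.19, 7.49, 1.03, 2.9 and 4.52 CPM in Duxbl embryos against 188 to 496 CPM (median 302) in late mCherry embryos (difference -6.57 ± 0.53, limma adjusted p = 3.23e-14). Mrpl41, a mitochondrial ribosomal protein gene, not only missed the gain but went from 13.9, 10.1, 11.4, 11.9 and 16.2 CPM to 1.14, 3.77, 1.32, 3.78 and 2.35 CPM, a change of -2.05 ± 0.24 (limma adjusted p = 6.6e-10), whereas mCherry embryos gained it by 4.22. Alppl2, a placental-type alkaline phosphatase gene, went from 16.6, 12.5, 13.6, 21.8 and 13.9 CPM to 3.08, 0.882, 1.57, 1.21 and 3.43 CPM and rose by 4.68 in mCherry embryos. The folate receptor gene Folr1, Pramel7 and Pdxk had no called change in Duxbl embryos (-0.07, -0.42 and 0.39) and rose by 6.42, 5.89 and 6.96 in mCherry embryos. Sertad1 and Surf2 fell by 1.31 and 1.62 in Duxbl embryos and rose by 5.36 and 4.69 in mCherry embryos. The fall of Sertad1 was not called in a fit of the 2 Duxbl groups alone.

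As a list, 35 genes transcribed at the 2-cell stage gave 2 higher and 8 lower in Duxbl embryos (median -0.08), against 26 higher and 4 lower in mCherry embryos (median 1.97). In uninjected embryos 19 of the 35 rose and 5 fell (median 1.23). The step was lower in Duxbl than in mCherry embryos for 22 of the 35 and higher for 1. With late library 4 left out, 1 rose and 8 fell in Duxbl embryos. Sp110, a nuclear body protein gene, fell from 201 ± 42.2 to 78 ± 40.4 CPM in Duxbl embryos and rose by 1.86 in mCherry embryos. Tcstv1 and Zfp750 fell in both, by 2.79 and 2.55 in Duxbl embryos, and Zfp750 by more in mCherry embryos (-3.92), a difference that was not called with library totals alone. Many of these genes have close copies.

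Ribosomal protein genes, which the embryo normally switches on together, gave 15 higher and 22 lower of 83 in Duxbl embryos (median 0.10, which turned to -0.02 on the deposited scale), against 78 higher and 2 lower in mCherry embryos (median 2.65). The step was lower in Duxbl embryos for 75 of the 83. Rpl29 went from 37.8, 33.5, 24.2, 35.4 and 34.2 CPM to 7.25, 7.45, 12.4, 7.84 and 6.64 CPM, a change of -1.88 ± 0.22 (limma adjusted p = 8.37e-10), while mCherry embryos reached 81.2 to 171 CPM (median 107). Rpl7l1, a paralog of Rpl7, fell by 3.07 in Duxbl embryos and rose by 3.05 in mCherry embryos. Rpl12 is a member that rose in both, by 2.55 and 4.30, with a smaller step in Duxbl embryos (limma adjusted p = 0.00127). Processed pseudogenes share sequence with many of these genes.

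Among ribosome assembly factors 27 of 58 fell and 5 rose in Duxbl embryos (median -0.63), against 45 higher and 2 lower in mCherry embryos (median 1.72), and the step was lower in Duxbl embryos for 55. Leaving out late library 4 gave 28 falls and 2 rises. Ddx56, a nucleolar helicase gene, fell from 21.2 ± 9.35 to 1.77 ± 2.71 CPM and rose by 1.95 in mCherry embryos, and Nol9 fell by 3.06 and rose by 1.71. Genes of RNA polymerase II and Mediator gave 7 higher and 27 lower of 56, against 26 and 14 in mCherry embryos. Gtf2b, which codes for TFIIB, fell by 2.34 in both kinds of embryo.

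**Figure D4:**
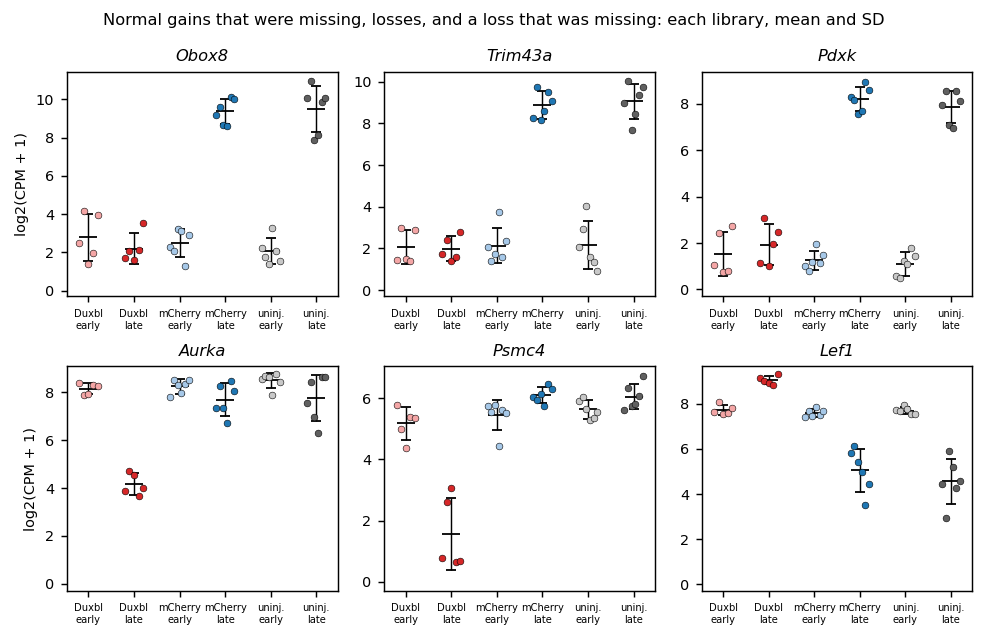
Level of 6 genes, log2(CPM + 1), in each 2-cell library of the 3 treatments, with mean and SD. Obox8, Trim43a and Pdxk rose in control embryos and stayed low in Duxbl embryos, Aurka and Psmc4 were low in Duxbl late 2C libraries alone, and Lef1 was high there and low in late controls.

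Losses of Duxbl embryos with no called loss in mCherry embryos included those of the kinase gene Aurka and the proteasome gene Psmc4. Aurka (chr2:172198110-172212455, minus strand), the mitotic kinase Aurora A, went from 332, 237, 242, 318 and 307 CPM to 13.6, 25.6, 22.1, 11.6 and 15 CPM, a change of -4.00 ± 0.29 (limma adjusted p = 5.65e-16). Late mCherry libraries held 104 to 357 CPM (median 215), and the difference of the steps was -3.45 ± 0.39 (limma adjusted p = 3.07e-10). The lowest late mCherry library was above every late Duxbl library. Aurka changed by -0.55 in mCherry embryos (limma adjusted p = 0.0692) and fell by 0.75 in uninjected embryos (limma adjusted p = 0.0123). Psmc4, an ATPase of the proteasome, went from 54.7, 31, 19.7, 40.9 and 39.7 CPM to 0.711, 5.04, 7.4, 0.56 and 0.588 CPM, a change of -3.63 ± 0.31 (limma adjusted p = 1.34e-13), with libraries 3 and 4 above the other late ones. mCherry embryos gained it slightly (0.67, limma adjusted p = 0.04).

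Ess2, a gene of the spliceosome C complex, showed the same with little spread at early 2C: 44.8, 38.6, 39, 37.5 and 45 CPM went to 0.237, 0.539, 0.98, 3.5 and 1.58 CPM, a change of -4.30 ± 0.27 (limma adjusted p = 8.93e-18), against 39.8 to 58.4 CPM (median 49.3) in late mCherry libraries. Ddx39a, an RNA helicase of mRNA export, went from 143, 126, 94, 129.7 and 114 CPM to 9.96, 9.7, 16.5, 8.64 and 5.47 CPM and rose by 1.12 in mCherry embryos. Irf1, an interferon regulatory factor, went from 52, 13.7, 23.4, 50.3 and 45.4 CPM to 0.664, 1.03, 0.735, 4.53 and 6.01 CPM. Ppan, Timm44, Nat8f2, Ccdc130 and Klhl25 had the same pattern, with changes between -4.02 and -3.54 in Duxbl embryos and none called in mCherry embryos. Nat8f2 belongs to a gene family with close copies.

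The largest fall of all named genes was that of Nelfcd, a subunit of the negative elongation factor, which went from 54.6, 45.2, 59.9, 37.9 and 36.9 CPM to 0.758, 0.637, 1.42, 0.327 and 0.813 CPM, a change of -4.74 ± 0.33 (limma adjusted p = 2.07e-16). mCherry embryos lost it as well but less (-1.16, difference -3.58 ± 0.44, limma adjusted p = 3.06e-09). Other large falls belonged to the normal step. Zc4h2 went from 24.3, 30.7, 41.4, 24.6 and 31.3 CPM to 0.19, 0.196, 0.245, 0.327 and 0.497 CPM in Duxbl embryos (-4.59) and fell by 4.43 in mCherry embryos. Elp3, Cmtr2, Speer4f2 and Cldn8 also fell in both with no called difference.

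Most cell division genes fell in Duxbl embryos. Of 32 genes of the G2 and M phases 23 fell and 2 rose (median -0.94), against 13 and 10 in mCherry embryos (median -0.27), and the step was lower in Duxbl embryos for 15 and higher for 5. Omission of late library 4 gave 22 falls and 4 rises. The mitotic genes Incenp, Plk1 and Tpx2 fell by 2.66, 2.90 and 2.32. Of 43 DNA replication genes 27 fell and 4 rose (median -0.98), against 18 and 17. Mcm10, a replication initiation factor, went from 77, 68.7, 71.4, 107 and 69.6 CPM to 3.46, 6.12, 20.4, 1.77 and 4.25 CPM, a change of -3.64 ± 0.29 (limma adjusted p = 2.05e-14), and library 4 was the highest at late 2C. Of 32 proteasome genes 24 fell and 2 rose (median -1.25), against 8 and 16 in mCherry embryos (median 0.48), and no member had a higher step in Duxbl embryos while 23 had a lower one. In the fit lacking late library 4, 24 fell and 1 rose. Psmc5 fell by 3.68, whereas Psmd7 rose by 2.09.

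**Figure D5:**
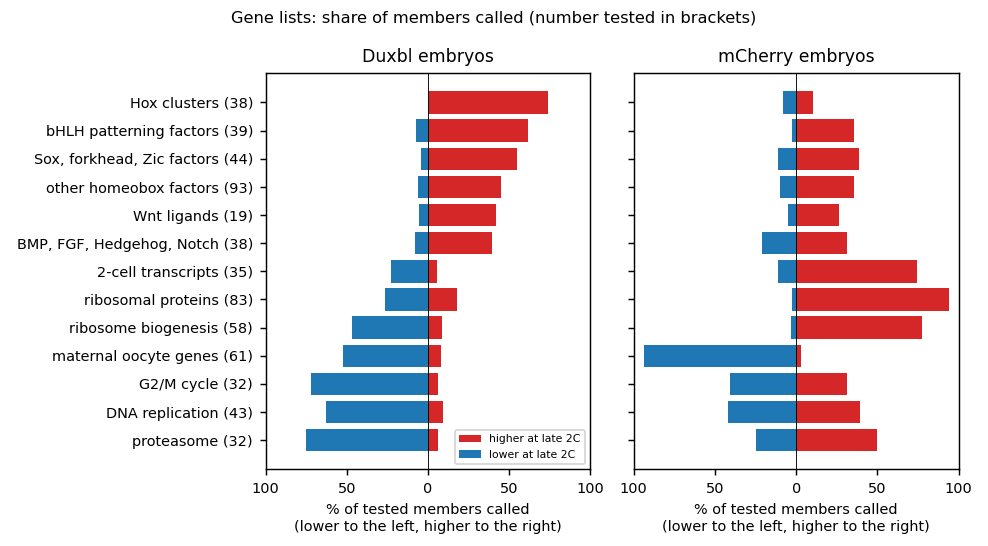
Share of the tested members of 13 gene lists called lower (left of 0) and higher (right of 0) from early to late 2C, in Duxbl embryos (left panel) and mCherry embryos (right panel), with the number tested in brackets. Hox genes rise in Duxbl embryos (28 of 38), and ribosomal protein genes rise in mCherry embryos (78 of 83).

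Maternal transcripts of the oocyte were lost in part. Of 61 such genes 32 fell and 5 rose in Duxbl embryos (median -0.70), against 57 and 2 in mCherry embryos (median -2.10). The step was higher, that is less negative or positive, in Duxbl embryos for 52 of the 61. Nlrp4a, of an oocyte NLRP family with close copies, went from 826, 994, 974, 807 and 934 CPM to 145, 165, 241, 133 and 137 CPM, a change of -2.49 ± 0.21 (limma adjusted p = 9.15e-14), and ended at 39.7 to 102 CPM (median 49.9) in mCherry embryos. The difference was 1.56 ± 0.28 (limma adjusted p = 9.8e-06). Obox1, a maternal Obox gene that overlaps Obox2 in the annotation, went from 3384, 2900, 4512, 2705 and 3215 CPM to 842, 954, 1253, 1202 and 1067 CPM, while mCherry embryos reached 149 to 553 CPM (median 253). Both stages and both kinds of embryo were apart for these 2 genes, with Duxbl late 2C in between. Of 27 genes of the maternal decay machinery 7 rose and 9 fell, against 10 and 15 in mCherry embryos. Pan2, a deadenylase subunit, fell by 1.73 in Duxbl embryos and fell by 1.82 in mCherry embryos.

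Some normal losses were missing. Lef1 (chr3:130904120-131018005, plus strand), a transcription factor of the Wnt pathway, went from 198, 271, 187, 192 and 222 CPM to 571, 522, 489.7, 461 and 651 CPM in Duxbl embryos, a rise of 1.33 ± 0.30 (limma adjusted p = 0.000318), whereas mCherry embryos fell to 10.6 to 68.4 CPM (median 36). The difference of the steps was 3.89 ± 0.41 (limma adjusted p = 5.06e-11). Grm4, a glutamate receptor gene, was at 171, 103, 87.6, 163 and 131 CPM and 132, 281, 104, 132 and 93.9 CPM in Duxbl embryos and at 3.21 to 22.7 CPM (median 8.97) in late mCherry embryos. Psg17, of the pregnancy-specific glycoprotein family with close copies, was at 178, 99.5, 136, 93.9 and 128 CPM and 99.3, 131, 89, 106 and 73.8 CPM and at 3.01 to 15.1 CPM (median 9.07) in late mCherry embryos. Early and late Duxbl libraries overlapped for Grm4 and Psg17 but not for Lef1. Tpp1, a lysosomal peptidase gene, Cndp1, Tnip3, Fate1 and Ccl3 rose in Duxbl embryos (by 0.92, 0.99, 0.93, 1.29 and 0.82) and fell by 2.25 to 2.74 in mCherry embryos. The call of Tnip3 was lost without early library 4, early library 7 or late library 6, and that of Ccl3 without any single library other than those numbered 4. Both were also lost with an added 0.1 and on the deposited scale. Lhfpl1 and Nr2e1 had no called change in Duxbl embryos (0.56 and 0.68) and changed by -3.15 and -2.91 in mCherry embryos.

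Regulators of genome activation were split: of 26, 7 rose and 10 fell in Duxbl embryos, against 17 and 6 in mCherry embryos, and the step was lower in Duxbl embryos for 18. Dppa2, an activator of Dux, went from 109.7, 99.1, 97.7, 116 and 137 CPM to 27, 33.6, 14, 31.8 and 23.3 CPM (-2.12 ± 0.26, limma adjusted p = 4.19e-09) and rose by 1.24 in mCherry embryos. Klf17, a maternal Krüppel-like factor, fell by 2.06 and 1.61 with no called difference, and Klf4 rose by 2.01 and 2.43. Of 22 pluripotency genes 9 rose (40.9%) and 7 fell (31.8%), both above the 20.3% and 18.6% of all genes. In mCherry embryos 12 of them rose and 5 fell. Of 21 trophectoderm genes 4 rose and 4 fell (19% each), shares near those of all genes. Without late library 4, 2 trophectoderm genes rose and 4 fell. Esrrb fell by 2.45 with no called change in mCherry embryos (-0.45), and Id2 rose by 2.18 and 1.31.

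Of 15 primitive endoderm genes 5 rose and 1 fell, with a median of 0.58 against 0.06 in mCherry embryos, where 3 rose and 4 fell. The step was higher in Duxbl embryos for 9, and for 5 without late library 4. In that fit 5 rose and 0 fell, with a median of 0.21. Sox7 went from 0.686, 1.35, 1.42, 0.171 and 0 CPM to 6.73, 1.91, 21.8, 13.3 and 5.38 CPM, a change of 2.41 ± 0.36 (limma adjusted p = 3.96e-07), and was at 0 in all 6 late mCherry libraries. Library 4 held the highest late value. Foxa2 rose from 0.202 ± 0.288 to 3.16 ± 1.65 CPM, so that both stayed low.

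Cell cycle inhibitors and stress genes did not move as 1 group. Of 7 inhibitors of cyclin-dependent kinases 2 rose and 2 fell, but without late library 4 the falls went to 0, and voom weights gave 1 higher and 0 lower. Cdkn1a, which codes for p21, was at 13, 13.9, 21.5, 15.5 and 8.29 CPM and 12.3, 1.76, 5.59, 11.5 and 12.2 CPM while mCherry embryos reached 106 to 159.9 CPM (median 118). Its change of -0.83 ± 0.31 (limma adjusted p = 0.0281) lost its call without early library 3, 5 or 6 or late library 3 or 4, down to -0.43 without late library 3, and the difference of -4.18 ± 0.42 (limma adjusted p = 1.55e-11) kept it in each of those fits. Of 26 p53 targets 4 rose and 10 fell, against 15 and 6 in mCherry embryos. Bax, a promoter of apoptosis, fell by 2.63 and Ccng1 rose by 1.70. Of 20 genes of the integrated stress response 1 rose and 6 fell, with Ddit3, which codes for CHOP, down by 2.34. In mCherry embryos 9 of the 20 rose and 3 fell, and the step was lower in Duxbl embryos for 10 and higher for 3. Without late library 4, 0 of the 20 rose and 4 fell in Duxbl embryos. Polycomb genes gave 12 higher and 9 lower of 35, against 12 and 18 in mCherry embryos, and 14 lower on the deposited scale. Rbbp7, Eed and Pcgf1 fell in both kinds of embryo.

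Features of the genes that the test did not use are given here as descriptions. Protein-coding genes made up 61.8% of the genes tested, 56.7% of the 2642 genes gained in Duxbl embryos alone, 85.0% of the 1608 lost in Duxbl embryos alone and 68.3% of the 5024 missing gains. Long non-coding RNAs made up 23.1%, 3.36% and 13.1% of these 3 sets and 17.9% of all genes. The libraries do not mark strand, so reads of a non-coding gene and of an overlapping gene on the other strand cannot be told apart. Among protein-coding genes the median genomic span in mm39 was 22.0 kb over all genes, 31.4 kb for the gains of Duxbl embryos alone and 14.5 kb for the missing gains. The losses of Duxbl embryos alone had a median of 16.6 kb and the missing losses one of 49.9 kb. Genes that rose in Duxbl and fell in mCherry embryos had the longest median span of all sets described, 56.6 kb, and those with the opposite pattern one of 15.0 kb. Median transcript GC content in GENCODE vM21 was 45.6% and 51.0% for these 2 sets, and 49.6% over all protein-coding genes.

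Starting levels are given beside those of all genes tested, with medians of 1.61 CPM at early and 3.09 CPM at late 2C in Duxbl embryos. Genes gained in Duxbl embryos alone had a median early 2C level of 1.15 CPM and reached 8.77 CPM. The missing gains started at a similar 1.48 CPM. Lost genes of Duxbl embryos alone started at a median of 22.4 CPM and ended at 7.50 CPM. A called fall needs a level to fall from, and a gene high only in late Duxbl libraries can pass the filter. The choice of the sets therefore fixes part of this contrast. Genes that rose in Duxbl and fell in mCherry embryos started from a median of 60.4 CPM, so they were present before the step.

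Markers of other cells that a pool could carry were checked as sums of CPM per library. Neural crest markers (11 genes, none at 0 throughout a Duxbl group) summed to 24.6 to 34.6 CPM at early 2C and to 66.3 to 173 CPM at late 2C in Duxbl embryos, and to 14 to 61.8 CPM in late mCherry embryos. 7 of 10 tested rose, Sox10, Pax7 and Twist1 among them. Neural markers (19 genes) summed to 490 to 627 CPM at early 2C and to 322 to 479 CPM at late 2C (110.3 to 234 CPM in late mCherry embryos), of which the tubulin gene Tubb3 alone held 423 ± 51.7 and 65.1 ± 21.9 CPM, while Pax6 went from 5.58, 24.1, 23.6, 5.05 and 11.7 CPM to 115, 88.8, 134, 114 and 261 CPM. Oviduct markers (8 genes) rose to 79.6 to 183 CPM in late Duxbl and 46.9 to 159 CPM in late mCherry embryos, from 26.6 CPM at most at early 2C. Ovgp1, an oviduct glycoprotein gene, went from 3.48, 7.85, 4.6, 1.58 and 3.14 CPM to 70.7, 15.2, 38.5, 88.9 and 44.7 CPM. Cumulus markers (11 genes, with Inha at 0 in every Duxbl library) summed to 51.3 to 74.8 CPM and then 26.3 to 119 CPM, with 10.8 to 20.8 CPM in late mCherry embryos. The sums of sperm markers (9 genes) were 163 to 221 CPM and then 191 to 313 CPM, with 63.8 to 113 CPM in late mCherry embryos. Every late Duxbl library thus lay above every late mCherry library for neural crest, neural, cumulus and sperm markers. Late uninjected libraries reached 71.5 CPM for neural crest and 329 CPM for neural markers, so both overlapped with late Duxbl libraries. For cumulus and sperm markers they reached 24.0 and 121.8 CPM, below every late Duxbl library. Blood markers (6 genes) summed to 20.5 CPM at most in Duxbl embryos and to 34.6 to 74.7 CPM in late mCherry embryos. The part of such cells in the results above was not tested.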

How the data were processed

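RNA was measured in pools of 5 embryos, made into libraries with a SMART-Seq kit and a Nextera XT kit, per the labels' protocols. The submitters' processing notes name the trimmer Trimmomatic (0.39), the aligner STAR (2.7.10a), Picard (3.0.0), featureCounts (2.0.4) and DESeq2 (1.36.0), and the mm39 genome, without saying how each was used. The authors' table has 35750 genes in 50 libraries, all values being whole. Its unit is a score made by the authors before it was deposited, not a raw count: low values come in steps of 0.554 to 1.993 per read, as scaled and rounded read counts would. The steps of the Duxbl 2-cell libraries imply 13.7 to 29.2 M reads. Every gene reached at least 6 in some library, and genes encoded by mitochondria are not analysed here.

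CPM was each value over its library total times a trimmed mean of M factor. Genes with a value of at least 10 in at least 4 libraries were kept (28808) and log2(CPM + 1) was fitted with limma 3.58.1 (trend and robust, R 4.3.3), with 1 mean for each of 9 groups. The difference of the steps was an interaction contrast, and progress values were compared by exact permutation. The method was tested on simulated data with changes set in the Duxbl step for genes of at least 10 CPM. Each simulated gene had the same spread in every group, averaged over groups and capped at an SD of 1 on the log2 scale. The wider spread of the late Duxbl libraries was therefore not imitated. With these settings the method recovered 52% of 2-fold and 95% of 4-fold changes, with 141 unchanged genes called in a fit of 27299 genes. A gene without a call can therefore still have changed by 2-fold. Changes were set in few genes, so the 141 false calls were nearly as many as the true ones. That share is far above the 0.05 aimed at by the adjusted p. Named genes were Duxbl1, Duxf3, Wnt1, Hoxb7 and Zic5, the largest changes of each kind with at least 10 CPM in the higher group and no overlap of groups (Gm, Rik and pseudogene names left out), and up to 4 called members of each of 34 gene lists with the smallest adjusted p. Genes and lists were chosen with earlier results of these data known. Only a part of the named genes is described. Promoter sequences came from RefSeq (GRCm38.p6), matched by symbol. Too few genes of the sets matched for a comparison of promoters between sets, which was not made. Alternatives were the added constant, the filter, the scaling, voom weights, smaller fits, a replicate block, another control and the omission of each library. Library numbers do not mark pairs by any label.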

Additional observations from a re-analysis of the deposited data

Results flagged for a closer look

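The step from early to late 2C differed between Duxbl and mCherry embryos for 12933 genes by the interaction contrast (limma, Benjamini-Hochberg adjusted p under 0.05). By each step's own call, 718 genes were called higher at late 2C in Duxbl and lower in mCherry embryos, and 832 lower in Duxbl and higher in mCherry embryos. At late 2C the progress along the normal step differed by -0.934 for gained genes and by -0.604 for lost genes, Duxbl minus mCherry (both exact permutation adjusted p = 0.00433, two-sided, 5 against 6 libraries).

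For 25 of 352 groups of values, the highest or lowest library stood apart from the others in Dixon's test. Each group was a named gene or a progress value in the Duxbl libraries of 1 stage, and all 25 were named genes. Chance alone marks about 1 in 20 such groups. Early library 4 stood apart for 6 genes. It held the highest values of Bmp5 (92.9 CPM, the next 64.2), Hoxa2 (1.88, the next 0.214), Hoxc8 (4.58, the next 0.531), Irs3 (0.916, the next 0.214) and Olig3 (2.83, the next 0.628). Its Obox2 value was the lowest at 1349 CPM, with the next at 2442. Each of the other early libraries stood apart for 1 gene. Nr4a2 was lowest in early library 3 (2.49 CPM, the next 8.0) and Rpl29 in early library 5 (24.2, the next 33.5). Mcm10 was highest in early library 6 (107 CPM, the next 77) and Olig1 in early library 7 (0.502, the next 0.0885).

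Among the late libraries, number 3 stood apart for 4 genes. Its values were the highest for Ddx56 (6.61 CPM, the next 0.840) and Odf1 (0.0490, the others at 0), and the lowest for Gt(ROSA)26Sor (4.11, the next 44.9) and Taf7l (9.36, the next 38.8). Late library 4 was highest for Rpl29 (12.4 CPM, the next 7.84), Sfrp1 (22.6, the next 4.56) and Sphk1 (120.1, the next 32.3). Late library 6 was highest for Dkk1 (6.72 CPM, the next 0.0980) and Obox7 (372, the next 268) and lowest for Nfya (10.2, the next 23.8). Late library 7 was highest for Asns (1.31 CPM, the next 0.147), Med21 (129.6, the next 98.3), Obox8 (10.7, the next 3.31) and Surf2 (2.94, the next 0.441), and lowest for Parn (3.62, the next 14.7).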

How the results depend on the processing

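The number of genes changed in Duxbl embryos (11217) was 10257 to 11162 without single Duxbl libraries. It was 10766 with an added 0.1, 11741 with no filter, 10946 with library totals alone, 11340 on the deposited scale, 10767 with voom weights and 7783 in a fit of the 2 groups alone. The difference of the steps (12933 genes) was called for 12479 to 13014 genes without single libraries, 11172 in a fit of 4 groups and 13057 against uninjected embryos. The late 2C progress differences stayed between -0.952 and -0.922 for gained genes and between -0.627 and -0.577 for lost genes without single Duxbl late libraries. That of lost genes at early 2C turned to -0.00932 with library totals alone (exact permutation adjusted p = 0.656), and the cause was not tested. The median of all genes for the difference of the steps moved from 0.015 to -0.101 with library totals alone and to -0.204 with voom weights.

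Samples of the same number deviated together weakly, with correlations of -0.0126 to 0.108 over 4 Duxbl pairs and 0.0435 to 0.171 over 6 mCherry pairs. In 3 of 4 and 4 of 6 cases the early library correlated best with its own number, more often than random matching would give on average. Whether equal numbers share a day or batch was not tested. As no label marks pairs, the main fit did not use the numbers. With the replicate block the fit of all groups called 11746 genes for the Duxbl step and 13331 for the difference. The 2 groups alone, restricted to the shared numbers, gave 6818 genes with the block and 6716 without it, as fewer libraries entered. That last fit and the list counts without late library 4 were chosen after seeing the data. Among gene lists, library totals alone moved the primitive endoderm genes with a higher step from 9 to 4, and the lower mCherry calls from 18 to 11 for Polycomb, from 18 to 10 for replication and from 6 to 3 for genome activation genes. Voom weights moved the helix-loop-helix factors with a higher step from 10 to 6 and the lower mCherry calls of Hox genes from 3 to 7 (6 on the deposited scale). The G2 and M genes with a higher step went from 5 to 8 on the deposited scale.

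Uncalled changes near 0 turned sign. Duxbl1 was at 0.0175 with library totals alone, 0.00941 in the 2 groups alone, 0.135 in both fits of shared numbers and between -0.268 and 0.164 without single libraries. Grm4 was at -0.0336 on the deposited scale and between -0.152 and 0.258 without single libraries. Trim43a was at 0.00603 with the replicate block and between -0.268 and 0.185 without single libraries, and Folr1 between -0.231 and 0.137. With an added 0.1 a total of 3 named changes and 8 named differences lost their call, and with voom weights 4 and 11. Depth limits genes at a few CPM, for which a library holds few reads.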
